A study of Mus musculus with 17 samples.

Results

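Cytosolic ribosomal protein genes encode the proteins of the ribosome that works in the cytoplasm. They were chosen by gene type and name alone: every protein coding gene of the Gencode vM21 annotation whose symbol is Rpl or Rps followed by a number, with the stalk genes Rplp0, Rplp1 and Rplp2 and with Rpsa, and without the Rps6k kinases. The rule read no measured value and found 83 of the 55450 genes in the count table, 51 named for the large (60S) subunit and 32 for the small (40S) subunit. A further 6 symbols of the same form were not protein coding and were left out.

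The genes were followed in 17 tumors grown from AB12, a single murine mesothelioma cell line, after injection into the peritoneum of female BALB/c mice. Untreated tumors were collected on day 6 (d6, n = 3), day 10 (d10, n = 5) and day 14 (d14, n = 3), and tumors of mice given 200 µg of anti CTLA-4 (clone 9D9) per injection on day 10 (n = 3) and day 14 (n = 3). All groups share the cell line, the strain and the site, and no group without tumor cells was measured. By the study's text treated d14 tumors were injected on d6 and d10, whereas the labels describe a longer course, and the injection days of treated d10 tumors are not given in the sources used here. Whole tumors were sequenced, so cancer cells, leukocytes and stroma are measured together, and fewer cells of a type cannot be told apart from less RNA per cell. The labels number the tumors of a group as replicates, and p-values measure the spread between these tumors only.

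The ribosome has a small subunit that reads the mRNA and a large subunit that joins amino acids. Each subunit takes up 1 copy of nearly every protein, and the stalk of the large subunit, made of P0 with copies of P1 and P2, calls in the translation factors. Ribosomal protein mRNAs are among the most abundant of a dividing cell, and their transcripts typically start in a run of C and T bases, the TOP motif, through which mTOR signaling controls their translation. The family has also left many processed pseudogenes in the genome, that is, copies of its mRNAs without introns. Reads that fit a gene and a copy equally well are lost when only uniquely mapped reads are kept.

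The sequences around the start sites of 8 genes that the results turn on are shown, because the run of C and T bases is the feature these genes are known for. They are RefSeq sequences of GRCm38.p6, printed from 20 bases before to 20 bases after the start, with the longest run of at least 8 C or T bases reaching within 10 bases of the start in capitals. Rps27 and Rplp2 encode a small subunit protein and a stalk protein, Rps6 the small subunit protein that S6 kinases phosphorylate, Rpl13, Rpl13a and Rpl4 large subunit proteins, and Rpl22l1 and Rps27l the paralogs of Rpl22 and Rps27. The windows lie at chr3:90213628-90213668 (minus strand), chr7:141447631-141447671 (plus), chr4:86857347-86857387 (minus), chr8:123102330-123102370 (plus), chr7:45128725-45128765 (minus), chr9:64173367-64173407 (plus), chr3:28805488-28805528 (plus) and chr9:66946066-66946106 (plus), in the order of the lines.
Rps27: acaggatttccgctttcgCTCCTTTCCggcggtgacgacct
Rplp2: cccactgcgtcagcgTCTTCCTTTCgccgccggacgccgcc
Rps6: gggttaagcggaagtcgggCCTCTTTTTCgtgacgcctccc
Rpl13: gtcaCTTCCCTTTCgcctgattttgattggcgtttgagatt
Rpl13a: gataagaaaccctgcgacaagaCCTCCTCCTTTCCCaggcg
Rpl4: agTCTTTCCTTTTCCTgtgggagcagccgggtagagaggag
Rpl22l1: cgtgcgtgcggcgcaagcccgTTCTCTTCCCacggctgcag
Rps27l: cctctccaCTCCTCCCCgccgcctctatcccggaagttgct

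Of the 83 genes, 63 had a promoter in the RefSeq table, and 29 of these 63 (46.03%) held such a run on the strand that reads like the RNA. Among all genes with a promoter of the same length 4362 of 27025 (16.1%) held one, and among the mitochondrial ribosomal protein genes 9 of 69 (13.0%). The longest run was taken for each gene. Rpl37 and Rpl36a, described below, had shorter runs at the annotated start. The run is a match of letters at an annotated position, and the start sites used in these tumors were not measured.

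The copies matter for these genes because many reads of a gene and of a copy are alike. Words of 75 bases, the shorter read length, were taken from the coding sequence of every member and looked for in the transcripts of all other genes. In 23 members every such word was found in another gene, in 18 members more than 60% of the words were unique to the gene, and the median member had 17.6% unique words. With words of 100 bases the median was 29.3%, and the same number of members, 23, had no unique word. Rps27, Rpl36a, Rpl13, Rpl10, Rps6 and Rpl24 had no unique 75-base word, against 9.5% for Rpsa, 60.2% for Rplp0, 90.9% for Rps27l and 100% for Rps3.

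A stretch of 100 coding bases from Rpsa, which encodes the small subunit protein also known as the laminin receptor, shows how close a copy can be. In the pair 4 bases differ, printed in capitals. Rpsa coding bases 442 to 541 are set beside Rpsa-ps2 (chr10:128776713-128776812, minus strand), with an identical run of 78 bases.
Rpsa: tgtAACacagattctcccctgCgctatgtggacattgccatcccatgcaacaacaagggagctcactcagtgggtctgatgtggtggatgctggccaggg
Rpsa-ps2: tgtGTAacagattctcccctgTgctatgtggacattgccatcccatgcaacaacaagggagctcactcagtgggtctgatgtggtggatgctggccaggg

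A read of 75 bases that lies inside such a run fits both places. Rpsa-ps2 was counted at 1.17 to 31.2 normalized CPM (counts scaled by library size and TMM) across the tumors. In all, 292 pseudogenes carry the name of a member, 212 of them with a count, and belong to 60 members. By shared 31-base words 708 pseudogenes were linked to 80 members, 494 of them under Gm symbols. Relative to the member's own counts, reads on named pseudogenes were highest for Rps2 (67.0%), Rps10 (59.6%), Rpl17 (34.5%), Rps19 (24.3%) and Rpl13 (9.73%). By linked pseudogenes other members had many reads on copies. The medians were 105 CPM on copies against 96.0 CPM of its own for Rpl23a and 84.3 against 79.9 for Rpl7a. They were 48.3 against 41.2 for Rpl21, 69.4 against 71.5 for Rpl26 and 31.5 against 40.6 for Rpl29. The counts of all these genes are therefore uncertain as measures of the gene alone.

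Total counts per tumor ranged from 46371577 to 96759833, and the untreated d10 tumors fell into parts. Of the 81 members tested between d10 and d6, 21 were higher in both d10 tumors 4 and 5 than in any of d10 tumors 1 to 3, 27 were lower, and 33 overlapped. Over all genes the shares were 27.8% higher and 29.7% lower, so the split was not particular to the family. The counts of Mir6236, a microRNA gene, were 3387 to 4697 at d6 and 3964 to 12332 in d10 tumors 1 to 3, against 176 and 141 in d10 tumors 4 and 5, 5 to 20 in untreated d14 tumors, 205 to 1244 in treated d10 tumors and 17 to 24 in treated d14 tumors. The labels name no batch. The study's methods do speak of more than 1 sequencing project and of genes removed for a batch effect between them, without saying which tumors belonged to which. Day and this split cannot be told apart in the comparison of untreated d14 with d6, and counts of calls that rest on the d10 tumors are given with each part.

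Expression was measured for nearly the whole family. Rpl4 had the highest median over the 17 tumors, 1941 CPM with 109946 to 174424 counts per tumor, followed by Rps3 with 1392 CPM and Rpl8 with 1116 CPM, the first and the last large subunit proteins and Rps3 a protein at the mRNA entry of the small subunit. Per kilobase of annotated exon the order differed, with Rplp1 (1751 CPM per kb), Rps15 (1395) and Rpl4 (967) highest. At the other end Rpl10l, the testis paralog of Rpl10, had 0 counts in all 17 tumors, Rpl39l, a paralog of Rpl39, had 2 to 23 counts per tumor, and Rpl3l, the muscle paralog of Rpl3, had 3 to 18. Rps10 and Rpl24, core proteins of the small and large subunit, were counted at medians of only 4.1 and 5.0 CPM. In Rps10 11.1% and in Rpl24 0% of 75-base words were unique, and 47.0% of the exon bases of Rpl24 lay on the same strand as an exon of another annotated gene.

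The family took its smallest share of the counts in treated d14 tumors. The summed share was 3.16%, 3.22% and 2.98% in the d6 tumors, 2.93%, 3.20%, 2.64%, 2.47% and 3.11% in the untreated d10 tumors and 2.73%, 2.69% and 2.63% in the untreated d14 tumors. In the anti CTLA-4 treated tumors it was 3.07%, 3.64% and 3.03% at d10 and 1.99%, 2.07% and 2.05% at d14. The 3 treated d14 tumors were the lowest of the 17, while the d6, untreated d14 and treated d10 tumors overlapped the range of the untreated d10 tumors. The means were 2.68% ± 0.05 (SD, n = 3) in untreated and 2.04% ± 0.04 (SD, n = 3) in treated d14 tumors. As a share of protein coding counts alone the means were 2.77% ± 0.05 and 2.11% ± 0.04 (SD, n = 3 each).

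**Figure D1:**
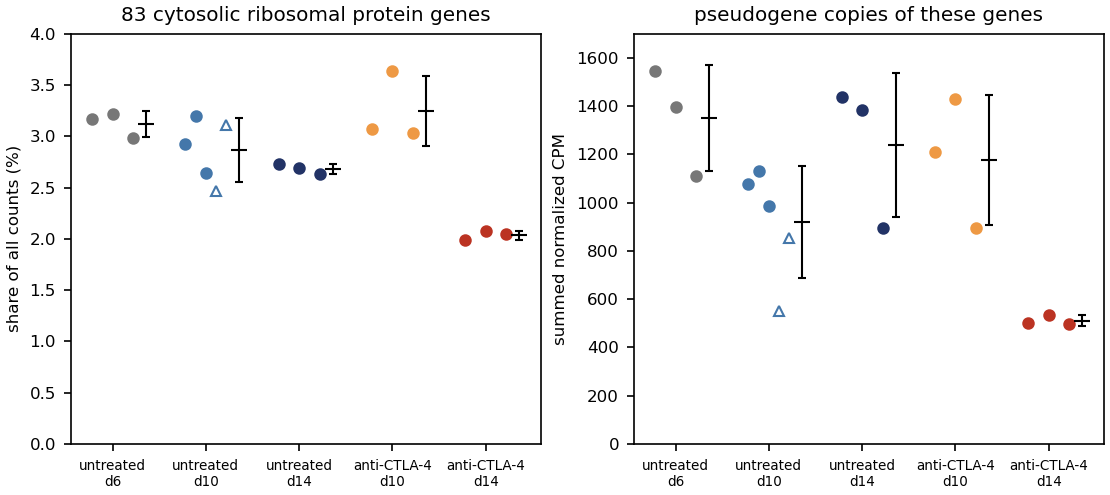
Left, the share of all counts (in %) taken by the 83 cytosolic ribosomal protein genes in each tumor, and right, the summed normalized CPM of the 708 pseudogenes linked to them, by group, with open triangles for untreated d10 tumors 4 and 5 and bars for the mean ± SD. The treated d14 tumors are the lowest in both panels, at 1.99% to 2.07% and at 496 to 536 CPM.

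The summed level of the linked pseudogenes was 895 to 1440 CPM in the untreated and 496 to 536 CPM in the treated d14 tumors, lower where the genes themselves were lower. Adding the named pseudogenes to the members left the means at 2.71% and 2.05%.

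The comparison of treated with untreated d14 tumors asks how blockade of CTLA-4, an inhibitory receptor of T cells, changes the advanced tumor. Ribosomal protein mRNAs of both subunits were lower in the treated tumors. Of 81 members tested, 57 were lower by edgeR's quasi-likelihood test at an adjusted p below 0.05 and 0 were higher, where 14.8% of the 18062 genes tested were called lower. With all 5 groups in one fit 37 of 82 were lower, where 10.9% of all genes were. The median log2 fold change was -0.44 over the members and 0.00 over all genes, and 74 of the 81 lay below 0. In 64 of 81 members every treated tumor was below every untreated one, against 25.0% of all genes. By subunit, 32 of 49 large and 25 of 32 small subunit genes were called lower, with medians of -0.46 and -0.39. Only 4 members passed a fold change above 2 as well, Rpl36a, Rps27, Rpl37 and Rpl19, where 2.40% of all genes did so in that direction.

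Rpl37, a small zinc-binding protein of the large subunit (chr15:5116645-5119140, plus strand), was counted at 198, 193 and 196 CPM in the untreated and 68.6, 103 and 89.6 CPM in the treated d14 tumors. All treated tumors lay far below the untreated ones. The log2 fold change was -1.14 (SE 0.14, edgeR adjusted p = 0.00462). Rps27, a zinc-binding protein of the small subunit (chr3:90212522-90213651, minus strand), went from 256, 244 and 273 CPM to 80.3, 134 and 101 CPM, a log2 fold change of -1.26 (SE 0.17, edgeR adjusted p = 0.00495). Rpl36a, a large subunit protein encoded on the X chromosome (chrX:134585654-134588062, plus strand), was at 116, 114 and 112 CPM in the untreated and 39.2, 49.6 and 43.5 CPM in the treated tumors. Its log2 fold change of -1.34 (SE 0.10, edgeR adjusted p = 0.00292) was the lowest of the family. Rpl19, another large subunit protein, fell by 1.09 on the log2 scale (SE 0.08).

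Of the 3 stalk genes 1 was called lower, and the differences between them were not tested. Rplp0, which anchors the stalk, was at 451, 452 and 394 CPM in the untreated and 290.5, 304 and 296 CPM in the treated d14 tumors, a log2 fold change of -0.51 (SE 0.08, edgeR adjusted p = 0.00587). Rplp1 and Rplp2, its acidic partners, had log2 fold changes of -0.21 and -0.15, with adjusted p-values of 0.106 and 0.192 by edgeR. Leaving out each tumor gave -0.29 to -0.14 for Rplp1 and -0.21 to -0.08 for Rplp2, and Rplp1 was called in 1 of 17 alternatives. Rpsa fell by 0.60 (SE 0.07), a call lost in 1 of 17 alternatives. Rps6 had a log2 fold change of 0.05 (adjusted p = 0.711 by edgeR), with 114, 120.0 and 139 CPM in untreated and 123, 121 and 132 CPM in treated tumors. The groups overlapped for Rps6, whose value turned to -0.01 with linked pseudogenes added, and the highest value of the family, 0.29 for Rps18, did not pass the test either. Rps18 ran from 0.17 to 0.55 when each tumor was left out and was called in 1 of 17 alternatives.

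Among the paralogs, Rpl22l1 and Rps27l were lower. Rpl22l1, the paralog of Rpl22, was at 47.9, 54.0 and 44.4 CPM in untreated and 25.4, 26.7 and 26.7 CPM in treated d14 tumors, and fell by 0.86 on the log2 scale (SE 0.08), against a fall of 0.49 (SE 0.08) for Rpl22. Rps27l, a target of p53 in other systems, fell by 0.76 (SE 0.09). Rpl39 fell by 0.88 (SE 0.11), and Rps4x by 0.39 (SE 0.06), the latter a call lost in 1 of 17 alternatives. Rpl7 fell by 0.26 (SE 0.07), a call lost in 6 of 17 alternatives, and its paralog Rpl7l1 had a log2 fold change of -0.16 (edgeR adjusted p = 0.107). Rpl3 had a log2 fold change of -0.38 (SE 0.13, edgeR adjusted p = 0.0608). It was called in 5 of 17 alternatives and ran from -0.47 to -0.21 when each tumor was left out. Rpl3l, at 3 to 18 counts per tumor, had a log2 fold change of 0.10 (edgeR adjusted p = 0.91).

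**Figure D2:**
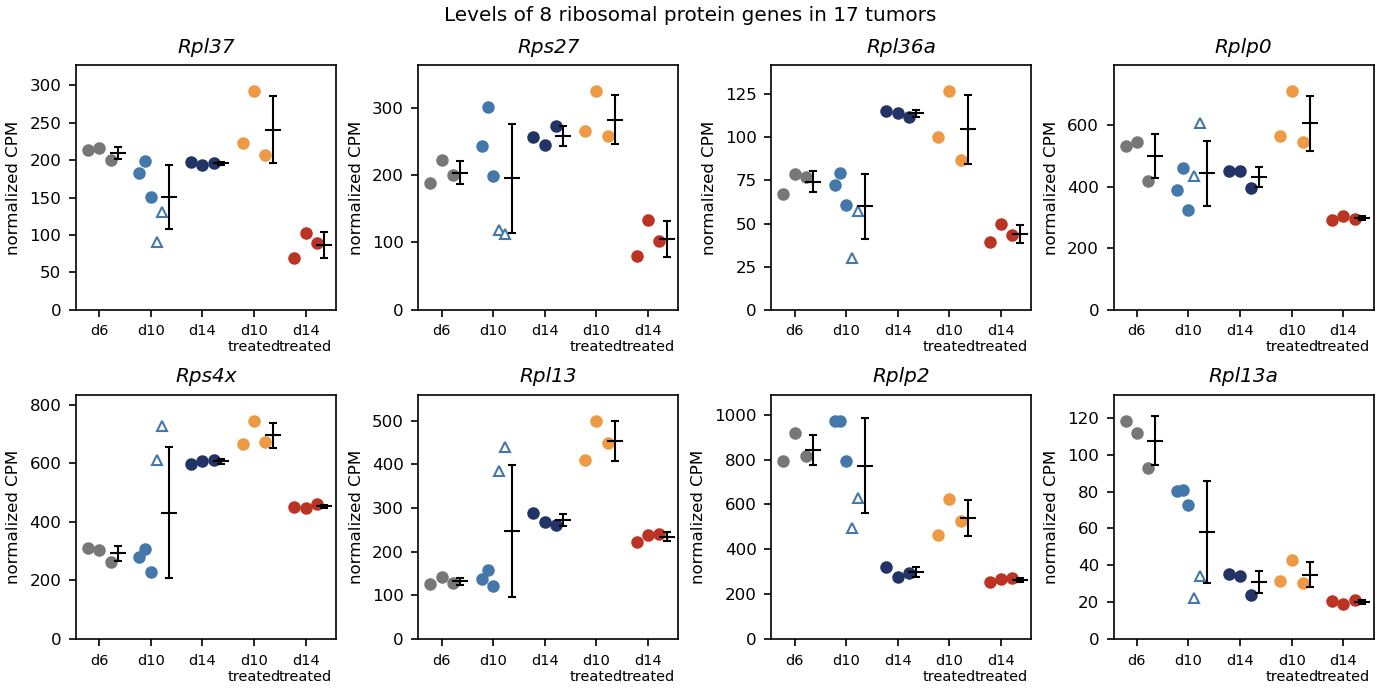
Normalized CPM (vertical axes, from 0) of 8 ribosomal protein genes in each tumor by group, with circles for tumors, open triangles for untreated d10 tumors 4 and 5, and bars for the mean ± SD. Rpl37, Rps27, Rpl36a and Rplp0 are lower in every treated d14 tumor than in any untreated d14 tumor, whereas Rps4x, Rpl13, Rplp2 and Rpl13a do not overlap between d6 and untreated d14 tumors, with d10 tumors 1 to 3 nearer to d6.

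The decrease was measured across members with and without unique sequence. Of the 15 members with more than 60% unique 75-base words and a mean of at least 1 CPM, all 15 lay below 0, 12 were called lower and the median was -0.34. Of the 23 members without a unique word, 14 were called lower, with a median of -0.48. When the counts of all linked pseudogenes were added to each member, the 57 called members were all called lower again. Leaving out each tumor in turn gave 39 to 57 called members, with no share of all genes given for those fits.

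The shorter members had the larger decreases. Among the 26 members with the shortest coding sequence (138 to 399 bases) the median log2 fold change was -0.63 and 23 were called lower, among the 26 of middle length (405 to 582 bases) it was -0.48 with 19 called, and among the 26 longest (588 to 1257 bases) -0.28 with 15 called. Spearman's rho of the log2 fold change with coding length was 0.44 over the 78 members, as a description across genes, which share their libraries. With annotated exon length it was 0.27 over the members and 0.02 over 9632 protein coding genes. Library preparation and RNA length were not measured here, and their part in this order was not tested.

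Other lists of genes of protein synthesis had smaller shares called lower, to be read against the 14.8% of all genes. Of 24 translation factors and other TOP mRNAs, 14 were called lower and 0 higher in treated d14 tumors, with a median of -0.26. Eef1a1, the elongation factor that brings tRNAs to the ribosome, fell by 0.48 (SE 0.09), and Tpt1 by 0.49 (SE 0.07). Of 30 ribosome biogenesis genes 8 were lower, among them Polr1c and Polr1d, subunits shared by RNA polymerases I and III, at -0.40 and -0.45, with a list median of -0.19. Of 75 tested mitochondrial ribosomal protein genes, which build a separate ribosome inside mitochondria, 16 were lower and 1 higher, with a median of -0.18. Of 7 snoRNA host genes, several of whose RNAs also start in TOP motifs, 4 were lower (Snhg12, Snhg1, Snhg6 and Gas5) with a median of -0.64. Among 17 regulators tested, Myc was lower (-0.25, SE 0.07) and Mdm2 higher (0.37, SE 0.09), and Mtor had a log2 fold change of 0.03.

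Markers of several cell types moved in the same comparison. All 7 T cell markers were called higher, with a summed level of 92.7 to 166 CPM in untreated and 245 to 278 CPM in treated d14 tumors. All 4 fibroblast markers were higher (846 to 1651 against 2147 to 3302 CPM) and 4 of 5 macrophage markers were higher. Proliferation genes were lower, 5 of 6 called, at 1848 to 1967 against 1278 to 1479 CPM, and of 7 mesothelium and mesothelioma genes 3 were lower and 2 higher. Pancreas acinar genes summed to 2661, 3.66 and 912 CPM in treated tumors 1, 2 and 3 and to at most 1.74 CPM in untreated d14 tumors. The part of the cell types in the ribosomal protein result was not tested.

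In the treated tumors the levels were compared between d14 and d10. Nearly every member was lower at d14: 79 of 81 were called lower and 0 higher by edgeR, where 23.3% of all genes were called lower. The median log2 fold change was -0.85, against 0.04 over all genes. A fold change above 2 was passed by 18 members, where 2.48% of all genes did so. The members not called were Rps10 (0.17) and Rpl3l (-0.27). Cell type markers moved in this comparison too. All 4 fibroblast markers (1266.5 to 1734 CPM at d10 and 2147 to 3302 CPM at d14), all 3 endothelium markers (65.6 to 92.6 and 132 to 160.5 CPM), 4 of 5 B cell and 4 of 5 macrophage markers, 3 of 7 T cell markers and all 4 tested pancreas acinar genes were called higher. Called lower were 1 of the 7 T cell markers and 4 of 6 proliferation genes (the latter at 1564 to 1702 and 1278 to 1479 CPM). Of 7 mesothelium and mesothelioma genes 3 were higher and 4 lower, with a summed level of 2888 to 3747 CPM at d10 and 1877 to 2093 CPM at d14. The mitochondrial chromosome took 0.576% to 0.969% of the counts at d10 and 1.31% to 1.36% at d14, and Gm42418 2.12% to 2.41% and 1.15% to 1.69%. Their part in the result was not tested.

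Rpl37 was at 222, 292 and 208 CPM in treated d10 tumors, and its d14 values given above were all less than the lowest of these, for a log2 fold change of -1.45 (SE 0.16, edgeR adjusted p = 0.000494). Rps27 fell by 1.41 (SE 0.17) and Rps20, which sits in the head of the small subunit, by 1.29 (SE 0.13). The stalk genes fell by like amounts: Rplp0 fell by 1.01 (SE 0.10), Rplp1 by 0.99 (SE 0.10) and Rplp2 by 1.02 (SE 0.10). Rps6, which did not pass the test between treated and untreated d14 tumors, was at 171, 203 and 177 CPM in treated d10 tumors and fell by 0.54 (SE 0.08). This call was lost in 1 of 17 alternatives. The smallest called decreases were those of Rpl4 (-0.37) and Rpl7l1 (-0.41).

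The length order was similar, with medians of -0.95, -0.85 and -0.73 from the shortest to the longest members, but here exon length over 9605 protein coding genes also had a rho of 0.43 with the log2 fold change. Of the mitochondrial ribosomal protein genes 71 of 75 were lower, with a median of -0.45, and of the translation factors 19 of 24, with a median of -0.49. Fau, whose product holds a ribosomal protein fused to a ubiquitin-like one, fell by 1.04 (SE 0.12) and Rack1, a small subunit protein outside the naming rule, by 0.61 (SE 0.11).

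At d10 no member passed the test between treated and untreated tumors. Of 82 members 0 were called by edgeR, where 3 of 17258 genes were called (0.0174%), and 32 members had an unadjusted p below 0.05, as had 2329 of all genes. DESeq2 called 7 members, all higher, where it called 0.927% of all genes higher. The median log2 fold change was 0.32, against -0.01 over all genes, and 67 members lay above 0. Leaving out each tumor gave medians of 0.21 to 0.39. In 19 members every treated tumor was above every untreated one, against 3.78% of all genes. Rplp0 was at 389, 462, 324, 436 and 606 CPM in untreated and 564, 709 and 544 CPM in treated d10 tumors, and the groups overlapped. Gm42418 took 0.475% to 1.72% of the counts in untreated and 2.12% to 2.41% in treated d10 tumors, without overlap. The mitochondrial chromosome took 0.880% to 1.95% and 0.576% to 0.969%, with overlap. The part of these measures in the result was not tested.

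The result depended on which untreated d10 tumors were used. Against d10 tumors 1 to 3 alone 45 of 81 members were called, 36 higher and 9 lower, where 14.9% of all genes were higher and 14.7% lower. Against d10 tumors 4 and 5 alone 2 were called, both higher, where 0.397% of all genes were. Without d10 tumor 5 the count was 9, with no share of all genes given for that fit. The median by share of unique words was 0.48 in members with none and 0.09 in the 15 members with more than 60%. Rpl36a was at 72.3, 79.3, 60.8, 29.8 and 57.5 CPM in untreated and 100.2, 127 and 87.0 CPM in treated d10 tumors, with a log2 fold change of 0.80 and an adjusted p of 0.287 by edgeR.

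Whether the treatment difference itself differed between the days was tested with an interaction term over the 4 groups of d10 and d14. The difference was lower at d14 for 39 of 82 members and higher for 0, where 5.85% of all genes were called lower. The median of the difference was -0.74 (log2), against -0.02 over all genes, and 21 members also passed a fold change above 2, where 2.15% of all genes did. In the 15 members with more than 60% unique words and at least 1 CPM the median was -0.38, with 4 called lower. In the 23 members without a unique word it was -0.77, with 11 called lower. Rpl36a (-2.15, SE 0.34, edgeR adjusted p = 0.00328), Rpl37 (-1.83, SE 0.31, 0.00379) and Rps27 (-1.81, SE 0.41, 0.0101) were lowest. Rpl22l1 (-1.59) and Rpsa (-1.47) were also called lower, and Rplp2 (0.36) and Rps6 (-0.73) did not pass the test. The median over the 75 mitochondrial ribosomal protein genes was -0.10. Without treated d10 tumor 2, which had the highest ribosomal protein share of all tumors, 24 members were called, with no share of all genes given. With untreated d10 tumors 1 to 3 alone 60 were called, 57 of them lower, where 17.3% of all genes were lower. With d10 tumors 4 and 5 alone 50 were lower, where 10.8% of all genes were. With the same parts Rps27 was at -1.46 and -2.56, Rpsa at -1.93 and -0.97, Rps6 at -1.46 and -0.04 and Rplp2 at 0.60 and -0.08. Cell type markers were called higher in the same test, 6 of 7 for T cells, 4 of 5 each for B cells and macrophages, 4 of 4 each for fibroblasts and adipocytes, and 3 of 6 proliferation genes lower, and their part in the result was not tested.

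**Figure D3:**
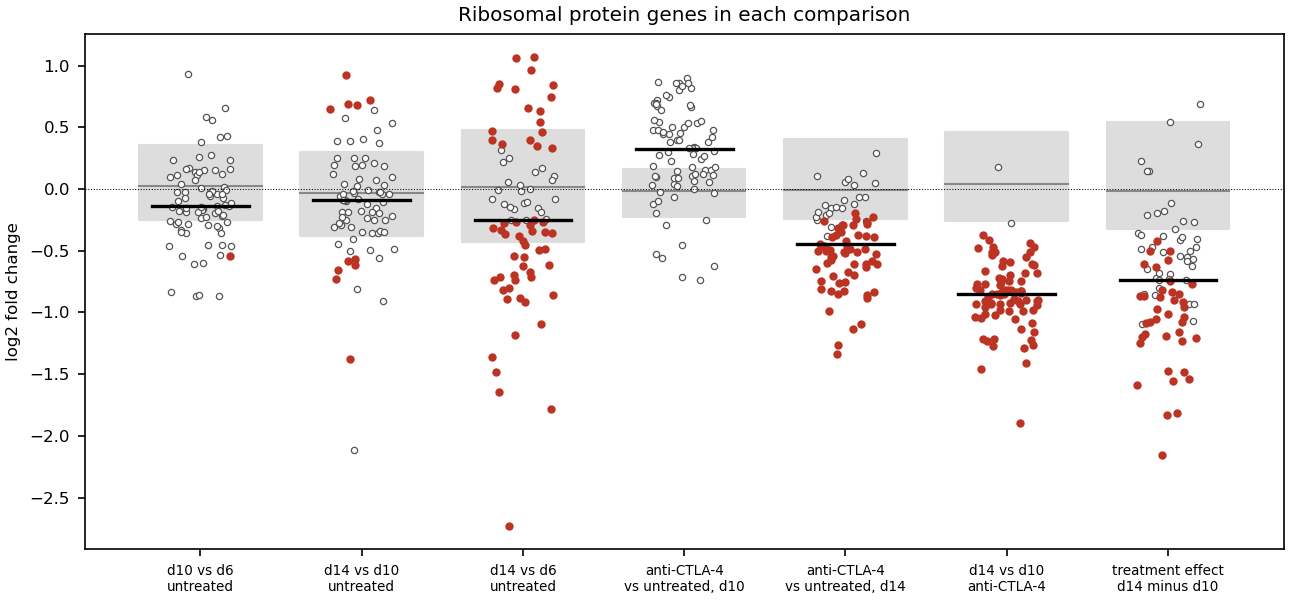
Log2 fold change (vertical axis) of each tested ribosomal protein gene in 7 comparisons, filled where edgeR's adjusted p is below 0.05, with black lines for the members' median and grey boxes and lines for the quartiles and median of all genes tested. The members' medians are -0.44 and -0.85 in the comparisons with treated d14 tumors and 0.32 for treatment at d10.

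In untreated tumors the family did not move as one. Between d10 and d6 1 of 81 members was called by edgeR, where 17.5% of all genes were called, 7.03% of all genes lower. It was Rps27l, at 192, 171 and 153 CPM at d6 and 112, 118, 95.1, 114 and 140 CPM at d10, with all d10 tumors below all d6 tumors and a log2 fold change of -0.55 (SE 0.13, edgeR adjusted p = 0.0199). The median of the members was -0.14, and -0.19 to -0.08 when each tumor was left out. Against d6, d10 tumors 1 to 3 gave 8 called members of 81, where 27.0% of all genes were called, and d10 tumors 4 and 5 gave 47 of 82, where 47.1% were. Without d6 tumor 1 or d6 tumor 2 the count was 0, without d10 tumor 2 it was 2 and without d10 tumor 4 it was 4. For these fits no share of all genes is given. Between d10 and d6, 6 of 7 T cell and 3 of 5 macrophage markers were called higher and 0 lower. T cell markers summed to 53.8 to 58.6 CPM at d6 and 223 to 298 CPM at d10. Gm42418 took 0.41% to 0.469% and 0.475% to 1.72% of the counts. Their part in the result was not tested.

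Between d14 and d10 5 members were called higher and 6 lower by edgeR, where 19.7% of all genes were called, 9.80% higher and 9.87% lower. Higher were Rpl36a (0.92), Rpl23a (0.72), Rps25 (0.69) and Rpl22l1 (0.68) among the named genes, and lower were Rplp2 (-1.38), Rpl23 (-0.73), Rps21 (-0.66) and Rplp1 (-0.59, edgeR adjusted p = 0.0498). Rplp2 kept its call under all 21 alternatives, whereas that of Rplp1 was lost in 12, of Rps25 and Rpl23a in 6 each, of Rpl23 in 5, of Rpl22l1 in 4, of Rpl36a in 3 and of Rps21 in 1. For Rpl23a these include a turn to -0.18 when its linked pseudogenes were added. With d10 tumors 1 to 3 and with d10 tumors 4 and 5 alone, Rpl36a was at 0.69 and 1.37, Rpl23a at 1.06 and 0.34, Rps25 at 0.95 and 0.38 and Rpl23 at -0.95 and -0.31. Rps6, not called with all d10 tumors (0.19, edgeR adjusted p = 0.755), was called higher with the first part (0.93) and lower with the second (-0.49). Cell type markers were lower at d14 in the same comparison, 7 of 7 for T cells (223 to 298 CPM at d10 and 92.7 to 166 CPM at d14), 4 of 5 for macrophages and 4 of 4 for adipocytes, and their part in the result was not tested. Rplp2 was at 973, 974, 794, 497 and 631 CPM at d10 and at 321, 277 and 295 CPM at d14, so that every d14 tumor was below every d10 tumor. With d10 tumors 1 to 3 alone 41 of 81 members were called, where 34.0% of all genes were, and with d10 tumors 4 and 5 alone 24 of 80, where 33.2% were. Without d14 tumor 1, 2 or 3 the counts were 2, 1 and 4, without d10 tumor 1 or 2 they were 3 and 4, and without d10 tumor 4 the count was 18. For these fits no share of all genes is given.

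Between d14 and d6 18 members were higher and 39 lower by edgeR, where 51.5% of all genes were called, 25.5% higher and 26.0% lower. The median of the members was -0.25, against 0.01 over all genes. In the same comparison 5 of 7 T cell markers were higher and 1 lower, 2 of 3 endothelium markers higher and all 4 adipocyte markers lower. Gm42418 took 0.41% to 0.469% of the counts at d6 and 1.02% to 1.33% at d14, and the mitochondrial chromosome 1.52% to 2.02% and 1.17% to 1.39%. Neither pair of groups overlapped, and the part of these measures in the result was not tested. Rps4x, a small subunit protein encoded on the X chromosome (chrX:102184941-102189394, minus strand), was at 312, 304 and 263 CPM at d6 and 598, 608 and 613 CPM at d14, a log2 fold change of 1.07 (SE 0.09, edgeR adjusted p = 5.32e-05). At d10 it was at 279, 307 and 229 CPM in tumors 1 to 3 and at 612 and 729 CPM in tumors 4 and 5. The d10 tumors 1 to 3 thus lay near the d6 and d10 tumors 4 and 5 at or above the d14 level.

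Rpl13, a large subunit protein, was likewise at the d6 level in d10 tumors 1 to 3, but d10 tumors 4 and 5 lay above the d14 tumors, with 127, 141 and 129 CPM at d6, 137, 157, 122, 385 and 440 CPM at d10 and 288, 267 and 262 CPM at d14 (log2 fold change of d14 against d6 1.06, SE 0.08). Rpl10, which joins the large subunit late in its assembly, rose by 0.96 (SE 0.10), Rpsa by 0.82 (SE 0.09) and Rps6 by 0.75 (SE 0.10). With linked pseudogenes added to the members Rpsa rose by 0.26 and Rps6 by 0.32, both still called, and with all 5 groups in one fit the call of Rps6 was lost. For the linked pseudogenes, the d6 tumors and d10 tumors 1 to 3 were set against all other tumors. Those of Rpsa and Rps6 had the reverse order and those of Rpl13, Rpl10 and Rps4x overlapped. Between d6 and untreated d14 alone those of Rpl13 had the reverse order too, at 59.1, 49.0 and 37.2 and at 25.5, 32.2 and 14.0 CPM. Those of Rpsa summed to 86.8 to 122 CPM in the d6 tumors and d10 tumors 1 to 3 and to 7.04 to 38.7 CPM in the other tumors, and those of Rps6 to 24.4 to 36.2 and 2.32 to 13.7 CPM. Those of Rpl13 summed to 31.5 to 59.1 and 4.92 to 35.7 CPM, those of Rpl10 to 9.02 to 18.02 and 3.74 to 19.1 CPM and those of Rps4x to 2.82 to 6.98 and 2.13 to 15.0 CPM.

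Lower at d14 than at d6 were Rpl13a (-1.78, SE 0.16), Rplp2 (-1.48, SE 0.09) and Rpl29 (-1.36, SE 0.16, or -0.83 with linked pseudogenes added). Rpl13a, known outside the ribosome for silencing mRNAs of inflammation, was at 118, 112 and 92.6 CPM at d6, 80.5, 80.9 and 72.9 CPM in d10 tumors 1 to 3, 22.2 and 34.4 CPM in d10 tumors 4 and 5 and 35.0, 33.9 and 23.8 CPM at d14. In Rpl13a 2.6% of 75-base words were unique, and 35.4% of its exon bases lay on the same strand as an exon of another gene. Rpl24 had the lowest fold change, -2.73, from 13.7 to 17.3 CPM at d6 to 1.86 to 2.88 CPM at d14, and is below the 10 CPM set for naming. Rplp1 fell by 0.89 (SE 0.10), and Rplp0 had a log2 fold change of -0.19 (edgeR adjusted p = 0.205). Rplp0 ran from -0.31 to -0.10 when each tumor was left out and was called in 1 of 17 alternatives.

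**Figure D4:**
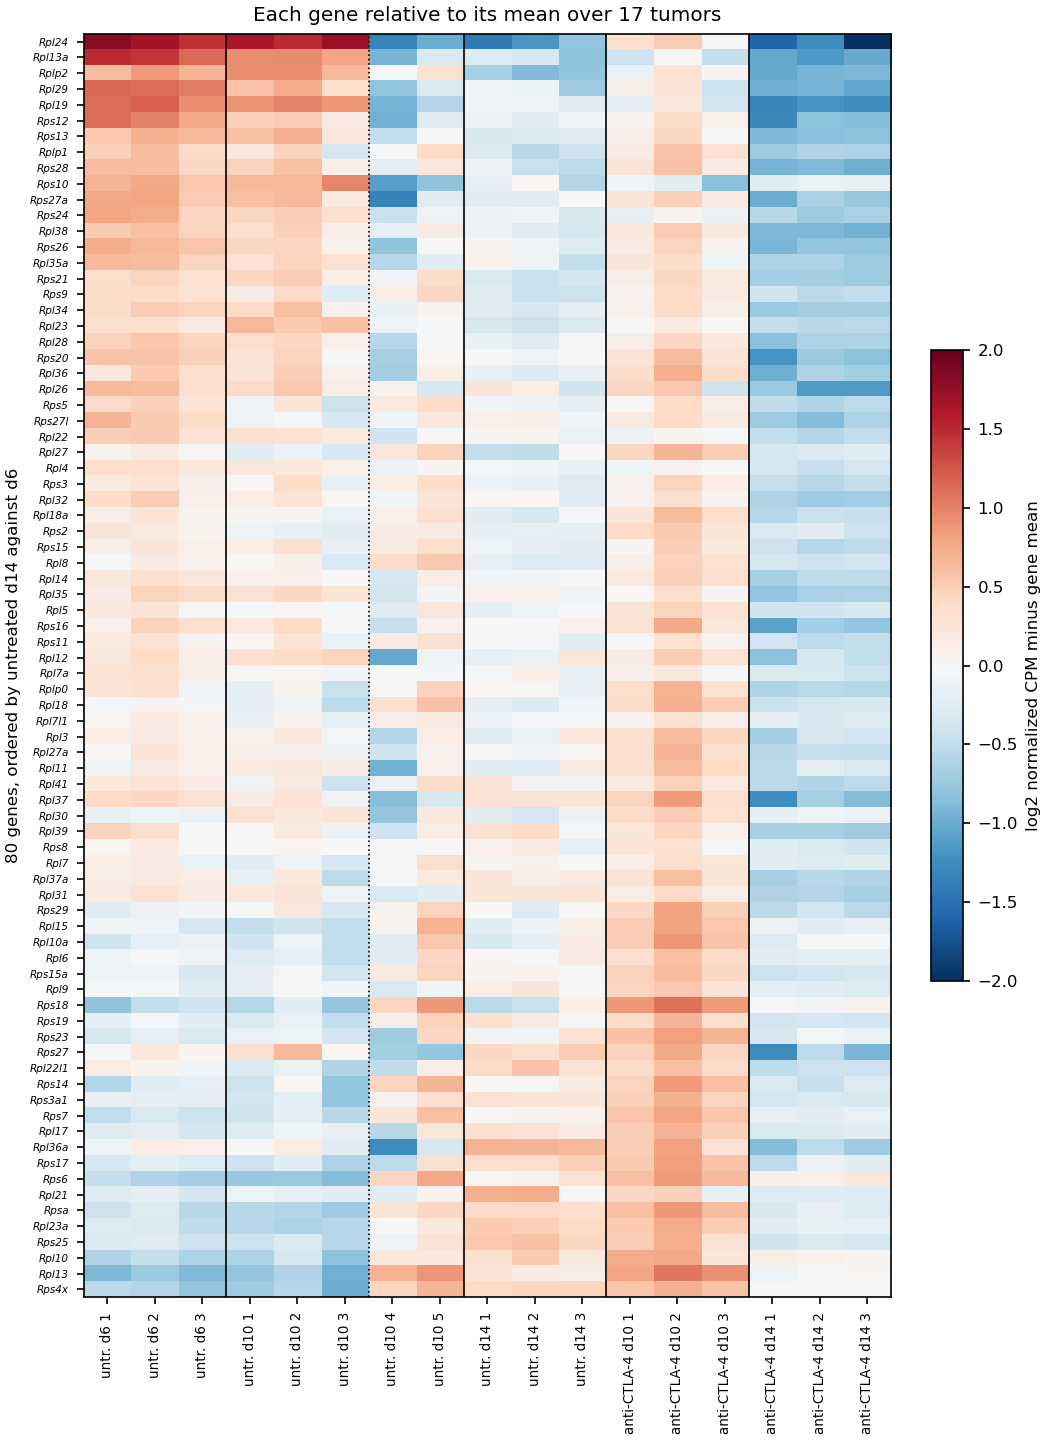
Log2 normalized CPM of 80 ribosomal protein genes (rows, ordered by the log2 fold change of untreated d14 against d6) in 17 tumors (columns) after subtraction of each gene's mean, with solid lines between groups and a dotted line between untreated d10 tumors 3 and 4. The top rows, such as Rpl13a, are high in the d6 tumors and d10 tumors 1 to 3 and low in d10 tumors 4 and 5, the bottom rows, such as Rps4x, the reverse, and the treated d14 tumors are low in most rows.

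Among members with a mean of at least 1 CPM, those with unique sequence spread less between d14 and d6. In the 23 members without a unique 75-base word the log2 fold changes ran from -2.73 to 1.06, with a median size of 0.54, 9 called lower and 8 higher. In the 15 members with more than 60% unique words they ran from -0.72 to 0.40, with a median of -0.35, 10 called lower and 1 higher. Rps3, with all its words unique, and Rps27l, with 90.9%, were among these. Rpl3l, also with all its words unique but below 1 CPM, was called lower at -1.64 (SE 0.43, edgeR adjusted p = 0.0110), a call lost in 2 of 16 alternatives. Read length and instrument per tumor are not given in the sources used here, and the part of read assignment in this spread was not tested. Mitochondrial ribosomal protein genes moved one way, with 67 of 75 lower at d14 than at d6, 0 higher and a median of -0.65.

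**Figure D5:**
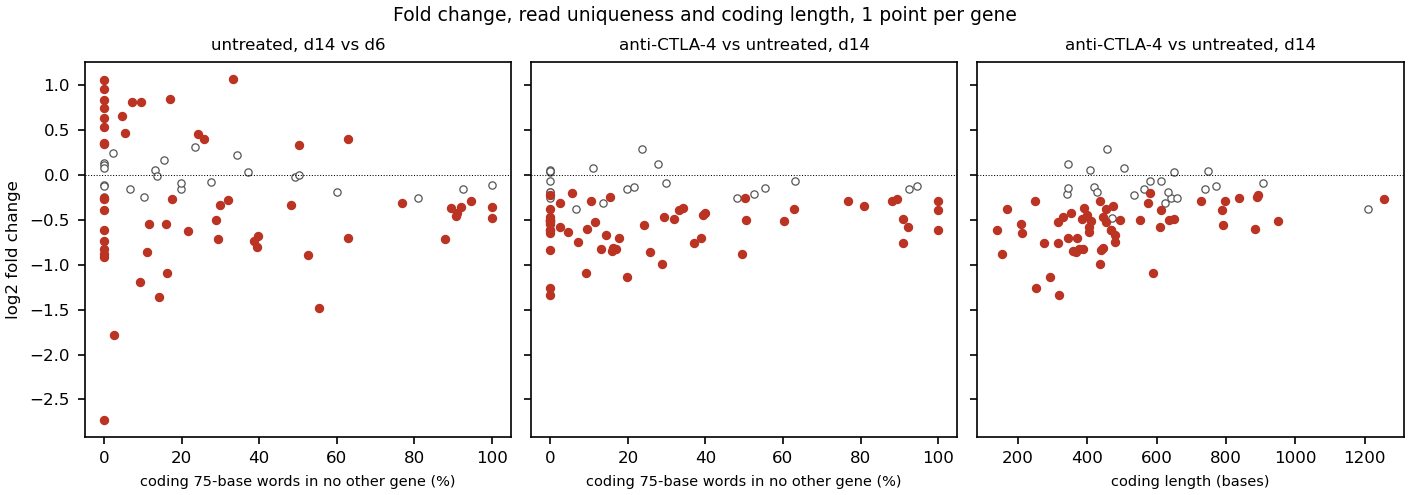
Log2 fold change (vertical axes) of each ribosomal protein gene against the share of its coding 75-base words found in no other gene (left and middle, in %) and against its coding length (right, in bases), filled where edgeR's adjusted p is below 0.05. Between untreated d14 and d6 the genes without unique words spread from -2.73 to 1.06, whereas the difference between treated and untreated d14 tumors lies below 0 at most shares and is larger in shorter genes.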

How the data were processed

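The authors extracted total RNA with TRIzol and built KAPA RNA HyperPrep libraries, which were read as paired ends of 75 or 100 bases on a NextSeq500 or NovaSeq6000. They aligned with TopHat2 2.0.14 to GRCm38 and counted uniquely mapped reads per Gencode vM21 gene with HTSeq. The deposited values are these whole-number counts per gene, without normalization. Whether counting used strand is not given in the sources used here, so overlapping genes cannot be told apart.

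Each comparison was tested with edgeR 4.0.16 in R 4.3.3 (filterByExpr, TMM, quasi-likelihood test, only the groups compared, Benjamini-Hochberg adjustment over all genes tested). A gene was called at an adjusted p below 0.05. The standard error (SE) is the absolute log2 fold change over the root of F. Depth was 46371577 to 96759833 counts per tumor, and genes at 3 counts or fewer were treated as at the floor. The script was tested on simulated counts. Coding words and 31-base links (at least 20% shared) came from the Gencode transcripts.

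The members and lists were chosen with earlier results of these data known. Named genes are the paralogs and partners, Rplp0, Rplp1, Rplp2, Rpsa and Rps6, the 3 highest and 3 lowest called members of each comparison with a mean of at least 10 CPM, the 3 highest and lowest levels, and the 5 with most named pseudogene reads. Others were named after their values were seen. Alternatives were DESeq2 1.42.0, library size without TMM, other count filters, protein coding genes only, thinned counts, 1 fit of all groups, pseudogenes added, parts of the d10 tumors, each tumor left out, and the replicate number as a block. Figures were drawn with matplotlib 3.10.9.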

Additional observations from a re-analysis of the deposited data

Results flagged for a closer look

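The effect of treatment differed between d14 and d10, by the interaction term, for 39 members, all lower at d14. Among the named genes the difference in log2 fold change was -2.15 for Rpl36a, -1.83 for Rpl37, -1.81 for Rps27, -1.59 for Rpl22l1, -1.47 for Rpsa, -1.18 for Rpl39, -1.09 for Rpl10, -1.07 for Rps27l, -0.97 for Rplp0 and -0.87 for Rpl3. The calls of Rpl10 and Rpl3 were lost in 8 and 3 of 27 alternatives. In the untreated d10 group, 33 sets of 5 values of named genes were checked for a tumor apart from the others, and 0 were found. That check looks for 1 tumor and cannot find a pair such as d10 tumors 4 and 5.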

How the results depend on the processing

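Counts of called members moved by over 1.5 times in 5 of the 7 comparisons. Between untreated d10 and d6 (1 member called) DESeq2 gave 4, all genes with at least 1 count 3, all 5 groups in one fit 7, linked pseudogenes added 2, d10 tumors 1 to 3 alone 8 and tumors 4 and 5 alone 47, and leaving out each tumor 0 to 4. Between untreated d14 and d10 (11) all groups in one fit gave 24, tumors 1 to 3 alone 41, tumors 4 and 5 alone 24, and leaving out each tumor 1 to 18. For treatment at d10 (0) DESeq2 gave 7, all groups in one fit 7, tumors 1 to 3 alone 45, tumors 4 and 5 alone 2, and leaving out each tumor 0 to 9. For treatment at d14 (57) all groups in one fit gave 37. For the interaction (39) tumors 1 to 3 alone gave 60 and leaving out each tumor 24 to 47. Same-numbered tumors share only a number (30 correlations of their deviations, -0.26 to 0.14), and with the replicate number as a block the counts were 11, 36, 48 and 64 in the same order, without treatment at d14. Numbers 4 and 5 occur only in untreated d10 tumors, which the block therefore leaves without weight. For the block no direction is given. Shares of all genes called are given above for the parts of the d10 tumors. They are also given for DESeq2 with treatment at d10 and for all groups in one fit with treatment at d14. Counts under the other alternatives, with the block and each tumor left out among them, have no such share. Those counts cannot be read against the change over all genes. Calls stayed within 1.5 times for untreated d14 against d6 (45 to 62) and treated d14 against d10 (73 to 80). Among the fold changes printed here, Rpl23a turned to -0.18 between untreated d14 and d10 with linked pseudogenes added and Rps6 to -0.49 with d10 tumors 4 and 5 alone, where it was called. Without a call in either fit, Rplp0 turned to 0.10 between untreated d14 and d6 with linked pseudogenes, Rps6 to -0.00110 and -0.0086 for treatment at d14 with named and linked pseudogenes, Rps10 to -0.17 and -0.18 between treated d14 and d10 with the same, and Rplp2 to -0.078 in the interaction with d10 tumors 4 and 5 alone. Leaving out each tumor gave -0.0086 to 0.16 for Rps6 and -0.24 to 0.57 for Rpl3l with treatment at d14, and -0.65 to 0.17 for Rpl3l and -0.042 to 0.31 for Rps10 between treated d14 and d10. The cause was not tested. Over 128 pairs of a gene named by rule and a comparison, 2348 of 2560 values kept direction and side of the threshold, 64 lost and 78 gained a call, and 70 changed sign, 68 of them without a call in either fit. The medians of the 7 comparisons kept their sign and moved by less than the spread between tumors (the interaction's was recomputed after seeing the data), as did the differences in summed share in the 4 comparisons where they were computed. Library size without TMM put the median of all genes at 0.10 in place of 0.01 between untreated d14 and d6 and at 0.16 in place of 0.04 between treated d14 and d10. Depth limits Rpl10l, Rpl39l and Rpl3l, with at most 23 counts in any tumor.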
